A study of Mus musculus with 96 samples.

Results

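GATA6 is a zinc-finger transcription factor that binds DNA at short sites built around the letters GATA and drives cells of the early embryo towards primitive endoderm (PrE), the lineage that forms the yolk sac. SOX17, an HMG-box factor of the same lineage, often binds next to it. OCT4 and SOX2, which share a composite OCT:SOX motif, and the nuclear receptor ESRRB are pluripotency transcription factors (PTFs) of embryonic stem (ES) cells. Most GATA6 peaks hold several GATA6 motifs or motifs of these partners. Described here are the peaks with the simplest sequence: a single GATA6 motif, a strong one, with no more than a weak match to any partner motif.

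Of 42403 GATA6 binding regions, 838 (1.98%) were of this kind. They were chosen from the deposited motif columns alone: the best GATA6 motif in the high score class, 1 motif match in the peak, and the SOX17, OCT:SOX and ESRRB classes each none or low. No binding value entered the rule directly. A count of 1 motif match goes with narrow peaks, however, and width correlated with GATA6 at 8 h of induction (Spearman 0.69 over all regions). Levels by region are therefore not independent of the rule. All are GATA6 peaks, so strong motifs that GATA6 does not occupy are outside the table. The high class began at a score of 12, where the lowest members lay, and the best scores in the mid class reached 11.99. Among the members the score had a median of 13.31 and a maximum of 15.20. Low-class partner matches were present for SOX17 in 325 members, for OCT:SOX in 437 and for ESRRB in 110, whereas 223 members had no partner match of any class.

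The cells were KH2 mouse ES cells (C57BL/6 x 129/Sv) with a doxycycline (Dox)-inducible Gata6 expression cassette, grown on feeder cells with LIF and profiled by ChIP-seq without Dox (before induction) and at 8 h, 16 h, day 1, day 2 and day 4 of treatment with 1 µg/mL Dox. XEN cells (line X10, strain CD1) were untreated and represent a stable extra-embryonic endoderm line of another strain. In a further pair of conditions, ES cells received Dox with control or Oct4 siRNA, and GATA6 and SOX17 were profiled at day 2. ES cells of every group carried the cassette. The study's methods give 2 clones of the inducible cells, with 1 of them used for siRNA, and the labels do not say which clone each other library came from. XEN cells were of 1 line. Most conditions had 2 libraries (GATA6 had 1 before induction and 3 at day 4, labelled rep1, rep1_2 and rep2), but replicates share a column, so that no spread between replicates is available and no test was run. Levels are RPM, the reads over a region scaled to a library of 1 M reads, and the spreads given are quartiles over regions.

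A score in the high class selects for the core of the motif, so that the members share it by choice. In 836 members the deposited match spanned 13 bases, and in 821 of them (98.2%) the letters AGATAAG stood at positions 4 to 10, counted from the 5′ end on the strand of the match. These letters occurred anywhere in the region in 98.1% of the members, in 22.2% of regions with a single mid motif and in 0.256% of those with a single low motif. The base after the core, at position 11, was A or G in 92.8% of the 811 matches whose bases were counted. At positions 1 to 3 the most frequent base reached at most 35.1%. The score depends on position 11 too, with median scores of 13.98 for A, 12.80 for G and 12.30 for C there. A score in the high class therefore selects for that base as well. Of the 811 matches 607 were distinct, and the most common sequence recurred in only 6 regions. The following stretches of the mm10 (GRCm38) reference, written on the strand of the motif with the 13 matched bases in capitals, come from members that gave the most extreme values below or that lie near genes of PrE or pluripotency.
Fzd1 region: tttgtacaCAGAGATAAGGCAcattgaat
Abcg2 region: aaagcctcCATAGATAAGAATgctaatgc
Tenm4 region: tgtgaccaCAGAGATAAGAAGagccagcc
Pwwp2b region: cgagtgctGGCAGATAAGATTccagccct
Fat4 region: gttctcctGAGAGATAAGCTAtctttgac
Hs6st2 region: taacagccCCTAGATAAGAAAcattccta
Zfp618 region: tgtgggggGGGAGATAAGAACactttgaa
S1pr1 region: gtttctctTTGAGATAAGATTgtgtgctt
Lrp2 region: tttacgagCCCAGATAAGGCGgggaggtg
Foxa2 region: gacattaaTAAAGATAAGAGAggccatgg
Stat3 region: cctcatttTGTAGATAAGGAAattgaggc
The Fzd1, Abcg2 and Tenm4 sites lost the most GATA6 between 8 h and XEN cells and the Fat4, Hs6st2 and Zfp618 sites gained the most, and all 6 hold the 7 core letters that a score in the high class selects for.

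Each region is named for the nearest start of a protein-coding gene, which need not be its target. The motifs lie, in the same order, at chr5:4979321-4979333 (minus strand), chr6:58579374-58579386 (minus), chr7:96089924-96089936 (plus), chr7:139234741-139234753 (plus), chr3:39216206-39216218 (plus), chrX:51549005-51549017 (plus), chr4:62848671-62848683 (minus), chr3:115679466-115679478 (plus), chr2:69585321-69585333 (minus), chr2:147980959-147980971 (plus) and chr11:100937406-100937418 (minus). GATA6 summits of the members fell in introns in 52.6% of cases, between genes in 42.4%, in UTRs in 2.74% and in coding exons in 2.27%. Over all regions the corresponding shares were 48.0%, 49.0%, 2.06% and 0.92%. A protein-coding start was within 1 kb of the summit in 86 members (10.3%, against 6.57% over all regions), and the median distance to a start was 17.4 kb (25.7 kb over all regions). Soft-masked (repeat) sequence held the motif in 126 members (15.0%, all regions 17.1%).

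A peak counted as having 1 motif could still contain more GATA letters. Counting GATA on both strands, the members held a median of 3 occurrences (all regions 4), and 168 of them (20.0%) held no GATA besides that of the motif. The members were narrow, with a median width of 379 bp (quartiles 299 and 496) against 524 bp over all regions, and the RPM of a region grows with its width. Peaks with a single mid-class motif (1124) or a single low-class motif (2341) under the same partner rule had almost the same widths (medians of 378.5 and 380 bp), and peaks with neither a GATA6 motif nor a mid or high partner motif (1907) had a median of 345 bp. These 3 sets are therefore compared with the members for many of the results below, and the other results are set against all regions only. A protein-coding start was within 1 kb of the summit in 8.99%, 14.4% and 18.8% of the 3 sets, against 10.3% of the members.

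The single strong motif lay close to the GATA6 summit. Its centre was a median of 30 bp from it (quartiles 13 and 52), and 366 members (43.7%) had it within 25 bp. A single mid motif lay a median of 33.5 bp away and a single low motif 52 bp away, with 40.2% and 27.6% of regions within 25 bp. At more than 100 bp were 59 members (7.04%), compared with 12.9% of regions with a single mid motif and 28.4% with a single low motif. In peaks with several motifs of which the best was strong (3397, same partner rule), the best motif was 37 bp from the summit.

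**Figure D1:**
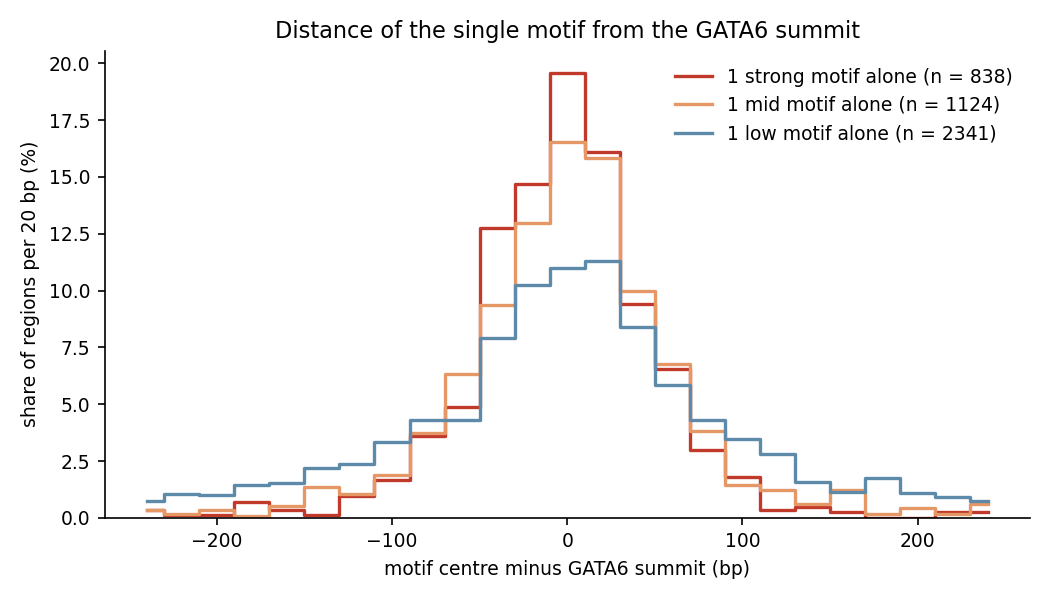
Position of the single GATA6 motif relative to the GATA6 summit in regions with 1 strong, 1 mid or 1 low motif and no mid or high partner motif; the x axis gives base pairs, the y axis the percentage of regions in each 20 bp bin, and regions beyond 250 bp are not drawn. The curve of the 838 strong motifs is the highest at the summit, with a median absolute distance of 30 bp, and that of the low motifs is the broadest, at 52 bp.

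Before induction GATA6 signal was close to background at the members: the median was 0.33 RPM, which is 2 reads at this column's depth of 6.12 M reads, and input chromatin (sequenced without antibody) was at 0.36 RPM. At 8 h of Dox the median reached 1.16 RPM (quartiles 0.54 and 2.03) and at 16 h 1.22 RPM. It was then 0.92 RPM at day 1, 0.74 RPM at day 2, 0.81 RPM at day 4 and 0.97 RPM in XEN cells. Binding was thus highest within the first 16 h, and the same medians over all regions ran from 0.49 RPM before induction to 1.49, 1.45, 1.29, 1.13, 1.29 and 1.34 RPM. Input stayed between 0.32 and 0.46 RPM in all conditions. Depths worked out from the smallest steps between values were 69.4 and 11.5 M reads for the libraries at 8 h and 15.3 and 14.6 M in XEN cells, so that a member at the median rests on about 93.7 and 28.9 reads.

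The order of the medians by motif strength differed between 8 h and XEN cells. At 8 h the median was 1.16 RPM with a strong, 0.98 RPM with a mid and 0.85 RPM with a low motif, and 0.69 RPM without one. In XEN cells the order was turned, at 0.97, 1.10, 1.20 and 1.27 RPM, though not in every accessibility class. In between, the strong, mid and low medians were 0.92, 0.85 and 0.91 RPM at day 1, 0.74, 0.73 and 0.86 RPM at day 2 and 0.81, 0.90 and 1.08 RPM at day 4. The members thus came to lie below the low set at day 2 and below the mid set at day 4. Compared with all regions, the members were lower at 8 h by region (log2 ratio of medians -0.36, 95% interval of the members' median -0.44 to -0.28) but not per kb of width (0.06) or within 5 width classes with equal numbers of regions (0.31). In XEN cells the ratio was -0.48 by region, -0.10 per kb and -0.11 within width classes. By region, the members had the lower median at 8 h on 20 of 20 chromosomes and in XEN cells on 19 of 20.

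**Figure D2:**
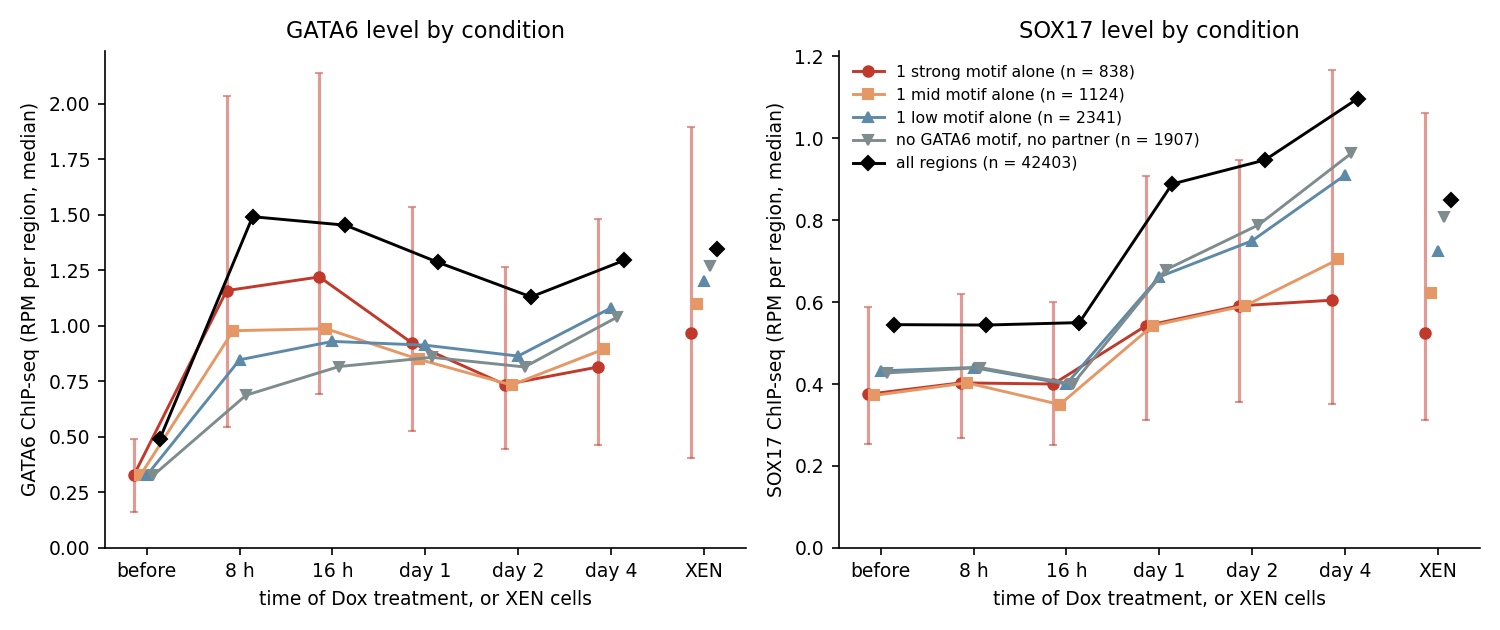
Median GATA6 (left) and SOX17 (right) ChIP-seq signal in RPM per region before Dox, at 8 h to day 4 of Dox and in XEN cells, for the members, the 3 sets with weaker or no GATA6 motif and all regions; vertical lines are the quartiles over the members, and conditions have no replicate error. The members start highest of the 4 motif sets for GATA6, at 1.16 RPM at 8 h, and end lowest in XEN cells, at 0.97 RPM, and their SOX17 median at day 4 of 0.605 RPM is the lowest drawn.

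Within the high class, the score was almost uncorrelated with binding. Across the 838 members, Spearman's correlation of the score with GATA6 was -0.01 at 8 h, -0.05 at day 4 and -0.01 in XEN cells. Members with the lowest 279, the middle 279 and the highest 280 scores had medians of 1.13, 1.19 and 1.16 RPM at 8 h. By the base before the core the medians at 8 h were 1.16 RPM for A, 1.14 RPM for C, 1.19 RPM for G and 1.14 RPM for T at position 3. Over the 38052 regions with a GATA6 motif of any class, the correlation of score and GATA6 at 8 h was 0.22. Their scores begin at 6.23 and they include wider peaks with several motifs or partner motifs. The coefficients thus differ in range of score and in the regions they cover. Width correlated more closely with GATA6 at 8 h among the members (0.67), and less so in XEN cells (0.25). All of these correlations are taken over regions that share libraries.

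Changes per region were taken on the scale of log2(RPM + 0.193), where 0.193 RPM is the 5th percentile of the non-zero GATA6 values, and a region was counted as higher or lower past 2-fold. Between the state before induction and 8 h, 492 members were higher (58.7%, against a background of 60.4% of all regions) and 6 lower (0.716%, background 1.8%), with a median log2 change of 1.25. The share of higher regions was 48.8% with a mid and 42.5% with a low motif. By day 1, 150 members were lower than at 8 h (17.9%, background 20.4%) and 63 higher (7.52%, background 12.2%). From 8 h to day 4 the members had a median change of -0.33 (95% interval -0.51 to -0.12), with 295 lower (35.2%, background 34.8%) and 179 higher (21.4%, background 30.9%). The 223 members with no partner match of any class had a median change of -0.0354. The 212 members whose higher value reached the median of all regions had -0.98, but a region passes this filter through its higher condition, which itself enlarges changes. With a mid motif the median change was 0.08 and with a low motif 0.56. A strong motif with a mid or high partner motif (866 regions) gave -0.84, and 47.1% of those regions were lower, but the partners differed, at -1.70 with OCT:SOX (270 regions), -0.92 with ESRRB (305) and -0.36 with SOX17 (552). Several motifs with a strong one gave -0.34, with 36.4% lower, close to the members' own value. From 8 h to XEN cells 314 members were lower (37.5%, background 37.8%) and 258 higher (30.8%, background 35.7%), so that both movements were common among regions with the same core sequence. Between day 4 and XEN cells 129 were higher (15.4%, background 14.4%) and 61 lower (7.28%, background 11.7%).

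The peak of GATA6 fell at 8 h in 233 members (27.8%, background 31.2%) and in XEN cells in 245 (29.2%, background 31.8%). At 16 h it fell in 194 (23.2%, background 13.8%), near the 23.8% of regions with several motifs and a strong best one. Days 1, 2 and 4 had 42, 19 and 105 members (5.01%, 2.27% and 12.5%, background 5.51%, 3.62% and 13.9%). None peaked before induction. GATA6 at 8 h and in XEN cells was weakly and inversely correlated across the members (Spearman -0.18), against -0.02 over all regions. Sites without a GATA6 peak in any condition are not covered, so neither coefficient describes them.

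**Figure D3:**
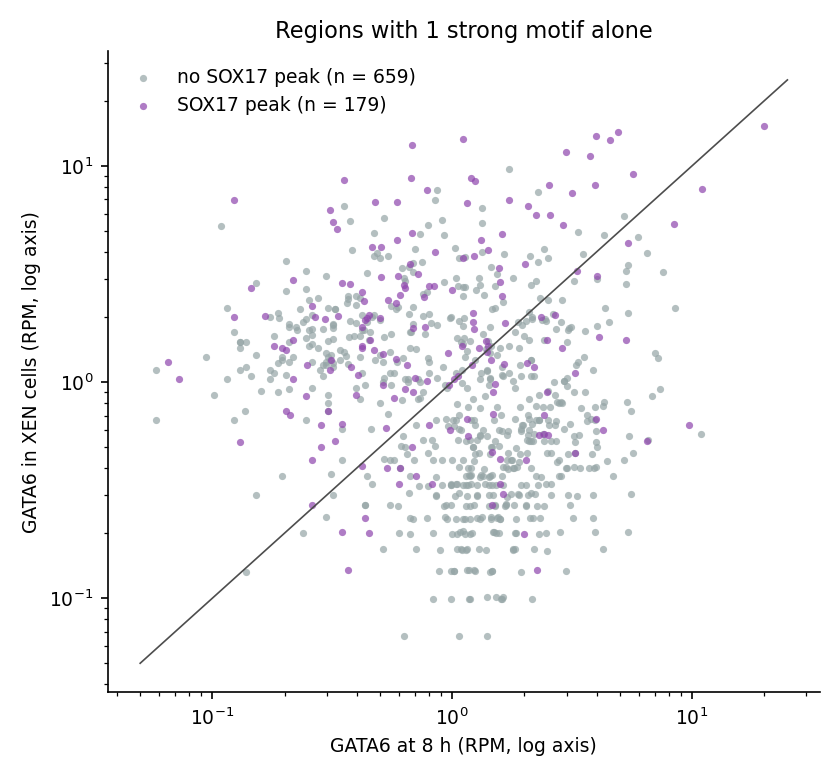
GATA6 at 8 h against GATA6 in XEN cells for each of the 838 members, in RPM on logarithmic axes, with equal values along the line; purple points are the 179 members with a SOX17 peak and grey points the 659 without. The members spread on both sides of the line, and the SOX17 points had the lower median at 8 h (0.78 against 1.20 RPM) and the higher one in XEN cells (1.57 against 0.77 RPM).

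The authors' classes of GATA6 dynamics gave the same picture, as they rest on the same signal. Of the members 413 (49.3%, background 38.4%) were Transient, 287 (34.2%, background 33.6%) Late and 138 (16.5%, background 28%) Early. Along the series of single motifs the Transient share went from 49.3% with a strong to 44.7% with a mid and 39.5% with a low motif, and was 37.1% without a motif, while the Late share went from 34.2% to 42.4%, 48.7% and 53.7%. The Wilson 95% interval of the members' Transient share was 45.9% to 52.7%, and when the widths of the whole table were given to the members the share was 49.8%. It was above that of all regions on 18 of 20 chromosomes. The Early share did depend on width and became 25.3%, and the Late share 24.9%. These shares give equal weight to each of 5 width classes, and the widest class held only 17 members. The Wilson interval does not cover this. With several motifs and a strong best one, 35.6% of regions were Early and 39.6% Transient. A high Transient share was not particular to a strong motif alone. With a mid or high partner motif beside a single strong one it was 52.9%. By partner it was 69.3% with OCT:SOX, 54.1% with ESRRB and 45.1% with SOX17. In Transient members the GATA6 median went from 1.61 RPM at 8 h to 0.55 RPM at day 4 and 0.44 RPM in XEN cells, and in Late members from 0.41 RPM to 1.06 and 1.71 RPM.

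**Figure D4:**
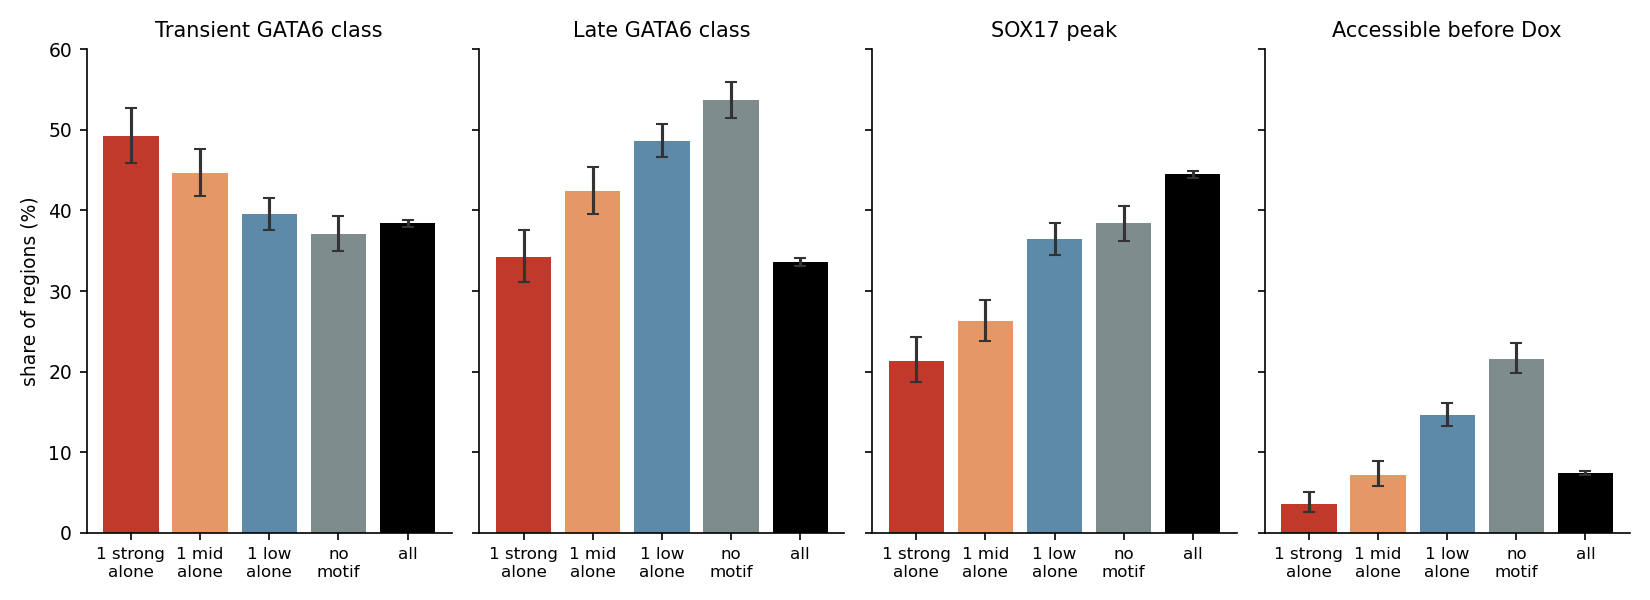
Share of regions (%) in the Transient and Late GATA6 classes, with a SOX17 peak, and in the accessible class before Dox, for 1 strong motif alone, 1 mid, 1 low, no GATA6 motif and all regions; error bars are Wilson 95% intervals over regions. From strong to no motif the Transient share goes from 49.3% down to 37.1%, and the Late, SOX17 and accessible shares go up, the last from 3.58% to 21.6%.

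The 3 accessibility classes of undifferentiated cells, taken from the deposited table, divided the members into 523 closed (62.4%, background 61.3%), 285 moderate (34.0%, background 31.2%) and 30 accessible (3.58%, background 7.43%) regions. Regions with a mid motif were accessible in 7.21% of cases, with a low motif in 14.6% and with no motif in 21.6%. In closed chromatin the medians at 8 h were 0.78 RPM for members, 0.51 RPM with a mid, 0.37 RPM with a low and 0.32 RPM without a motif, with median widths of 328 to 353 bp. In moderate chromatin the 4 medians were 1.70, 1.62, 1.39 and 1.11 RPM. In XEN cells closed members had a median of 1.03 RPM against 1.23, 1.24 and 1.26 RPM, and moderate members 0.77 RPM against 0.80, 0.88 and 0.90 RPM. The 30 accessible members were the highest of the 4 sets in XEN cells, at 2.30 RPM against 1.69, 2.18 and 2.01 RPM. Closed members were Transient in 37.9% of cases and Late in 44.9%, whereas closed regions with a low motif were Transient in 21.3% and Late in 67.61%. Moderate members were Transient in 69.8%, near the 66.8% of regions with a mid motif. In accessible chromatin the order differed. The 30 members were Transient in 53.3%, against 71.6% with a mid, 59.9% with a low and 52.2% without a motif.

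**Figure D5:**
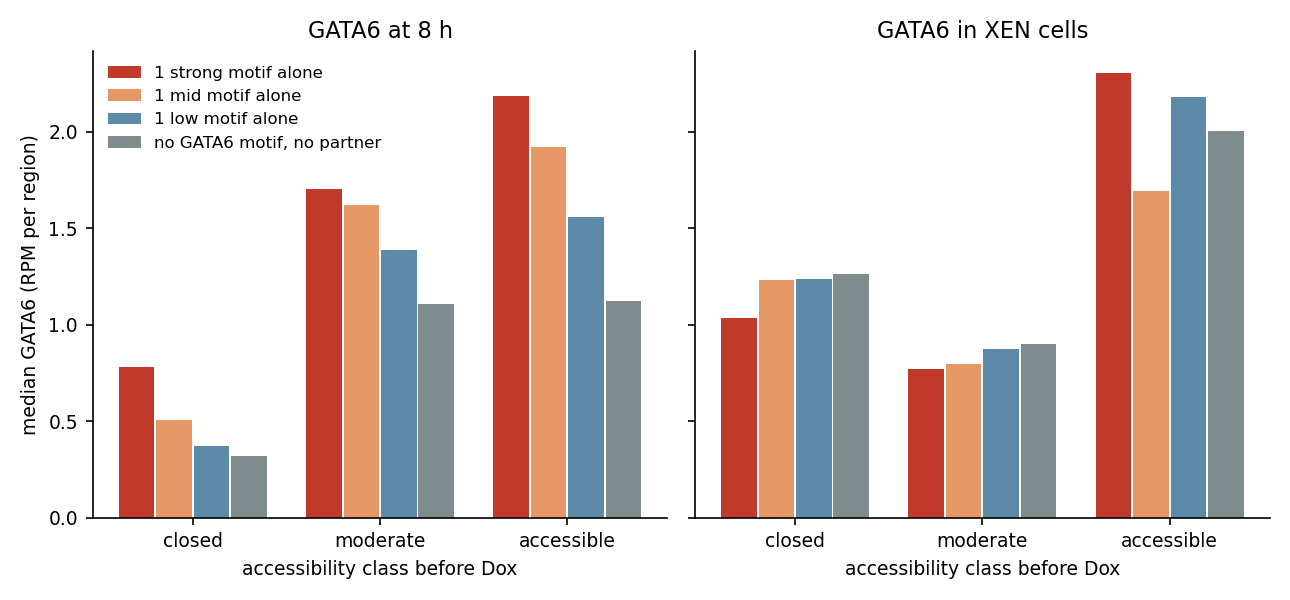
Median GATA6 in RPM per region at 8 h (left) and in XEN cells (right) by accessibility class before Dox, for regions with 1 strong, 1 mid, 1 low or no GATA6 motif and no mid or high partner motif; bars have no error because replicates share a column. At 8 h the bars descend from strong to no motif in each class, from 0.78 to 0.32 RPM in closed chromatin, and in XEN cells the closed members are the lowest of the 4 at 1.03 RPM and the accessible members the highest at 2.30 RPM.

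By histone state, 203 members were poised enhancers (24.2%, background 14.6%), and 78 were in the naive state (9.31%, background 18%). Facultative heterochromatin held 209 (24.9%, background 22.3%), constitutive heterochromatin 105 (12.5%, background 10.2%), primed enhancers 117 (14.0%, background 16.9%), promoters 75 (8.95%, background 6.88%) and active enhancers 51 (6.09%, background 11.2%). Regions with a mid, a low or no GATA6 motif were poised enhancers in 20.7%, 21.1% and 22.1% of cases, so that a high poised share was not particular to the members. Members at poised enhancers had a GATA6 median of 1.43 RPM at 8 h and 0.60 RPM in XEN cells and 69.5% were Transient, while those in facultative heterochromatin went from 0.59 to 1.23 RPM and 56.0% were Late. Whether these differences between histone states are particular to the members was not tested. Members without any GATA letters beyond the motif were Transient in 67.3% of cases and those with at least 4 occurrences in 37.3%, with median widths of 341 and 440 bp and closed shares of 44.0% and 72.5%.

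SOX17 peaks were called in 179 members (21.4%, background 44.5%) and 659 had none (78.6%, background 55.5%), where the rule leaves out mid and high SOX17 motifs. Regions with a mid, a low or no GATA6 motif, chosen under the same partner rule, had a SOX17 peak in 26.2%, 36.4% and 38.4% of cases. With the width distribution of the whole table the share was 28.3% in the members, with only 17 of them in the widest class. The median SOX17 signal was 0.37 RPM before induction, 0.54 RPM at day 1, 0.59 RPM at day 2, 0.605 RPM at day 4 and 0.53 RPM in XEN cells, where all regions had 0.54, 0.89, 0.95, 1.10 and 0.85 RPM. From before induction to day 4, 247 members were more than 2-fold higher in SOX17 (29.5%, background 44.5%) and 19 lower (2.27%, background 8.72%). Across the 838 members SOX17 and GATA6 at day 4 were correlated with a Spearman coefficient of 0.88, against 0.93 over all 42403 regions, from libraries of the same cells.

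SOX17-bound and unbound members differed in the course of GATA6. The 179 bound members had GATA6 medians of 0.78 RPM at 8 h, 1.15 RPM at day 1, 1.86 RPM at day 4 and 1.57 RPM in XEN cells, and the 659 others had 1.20, 0.87, 0.67 and 0.77 RPM. Among the bound members 47.5% were Late, 38.0% Early and 14.5% Transient, against 30.7%, 10.6% and 58.7% of the others. Over all regions the same shares were 40.3%, 45.7% and 13.9% with a SOX17 peak and 28.2%, 13.8% and 58.0% without. The Transient shares by SOX17 peak were thus close to those of the whole table. Bound members were wider, with a median of 438 bp compared with 366 bp. The part of width in the difference was not tested. For all regions the bound and unbound medians were 1.404 and 1.53 RPM at 8 h and 2.75 and 0.77 RPM in XEN cells.

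PTF peaks were rare, where the rule leaves out mid and high OCT:SOX and ESRRB motifs. Before induction 36 members (4.30%, background 20.8%) overlapped a PTF peak, and another 58 (6.92%, background 16.6%) were in the class with an ectopic one, leaving 744 without (88.8%, background 62.6%). With a single mid motif 7.56% had a peak before induction and with a single low motif 12.3%, under the same partner rule. With a single strong motif and a mid or high OCT:SOX motif the share was 30.4%. These shares depend on width, and with the widths of the whole table the members' share before induction was 14.0%. That value too rests on 17 members in the widest class. Among the 223 members with no partner motif at all it was 1.35%. OCT4 before induction had a median of 0.43 RPM (all regions 0.70), SOX2 0.47 RPM (0.81) and ESRRB 0.37 RPM (0.57), near the input of 0.36 RPM. From before induction to day 2, 61 members were 2-fold higher in OCT4 (7.28%, background 14.6%) and 14 lower (1.67%, background 4.86%). SOX2 was 2-fold higher in 19 (2.27%, background 6.01%) and lower in 20 (2.39%, background 6.7%). The 36 members with an early PTF peak had a GATA6 median of 3.99 RPM at 8 h, the highest among the deposited classes of members, and 0.69 RPM in XEN cells, with a median width of 668 bp. The 58 ectopic members had 1.93 RPM at day 2 and had SOX17 peaks in 58.6% of cases. Whether that share is particular to the members was not tested.

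With Oct4 siRNA, GATA6 at the members was near the control level. The median was 1.02 RPM with control siRNA and 1.05 RPM with Oct4 siRNA, and the median log2 change was 0.05 (all regions -0.004). Past 1.5-fold, 141 members were higher (16.8%, background 18.6%) and 123 lower (14.7%, background 17.4%). By class, the medians were 0.83 and 1.21 RPM in Late members, 0.94 and 0.76 RPM in Transient members and 2.46 and 2.54 RPM in Early members. Whether these differences between classes are particular to the members was not tested. SOX17 had a median of 0.44 RPM with control and 0.69 RPM with Oct4 siRNA, 360 members were higher (43.0%, background 45.4%) and 19 lower (2.27%, background 2.84%). The median SOX17 change of 0.49 log2 compares with 0.52 over all regions.

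The strongest member at 8 h and in XEN cells was an intronic region 13.7 kb from the start of Pwwp2b (chr7:139234283-139235266), with a motif 18 bp from the summit. Its GATA6 was 1.14 RPM before induction, then 20.0, 19.5, 14.3, 12.9 and 11.7 RPM up to day 4, and 15.2 RPM in XEN cells. It held GATA6 throughout and bore a SOX17 peak, with SOX17 at 2.63 RPM before induction and 6.29 RPM at day 4. At 8 h it was followed by a region 0.277 kb from a start of Tcf3, which encodes the bHLH E proteins, with 10.98 RPM at 8 h, 3.99 RPM at day 1 and 7.82 RPM in XEN cells. Input at the Tcf3 region was high, at 1.08 RPM at 8 h, 2.12 RPM at day 1 and 3.25 RPM in XEN cells. Behind Pwwp2b in XEN cells were a region in a UTR near Gm21987, with 4.90 RPM at 8 h and 14.3 RPM in XEN cells, and an intronic region 8.25 kb from Ptar1, with 3.96 and 13.8 RPM.

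The steepest loss was at a region (chr5:4979127-4979832) whose nearest start, 221 kb away, is that of Fzd1, a Wnt receptor. Its GATA6 went from 0.16 RPM (1 read) before induction to 10.9 RPM at 8 h, and then to 2.83, 1.35, 0.63 and 0.34 RPM by day 4 and 0.57 RPM in XEN cells. The motif lay exactly at the summit (0 bp). OCT4 there was 2.58 RPM before induction, 5.25 RPM at 8 h, 1.52 RPM at 16 h and 0.32 RPM at day 4, and SOX2 was 2.44, 5.04, 1.59 and 0.30 RPM, so that both were highest at 8 h, as GATA6 was. A region 17.3 kb from Abcg2, an efflux transporter, had 5.40 RPM at 8 h, 0.30 RPM at day 4 and 0.20 RPM in XEN cells, and a region 81.4 kb from Tenm4, a teneurin, had 4.24, 0.38 and 0.17 RPM. On the log2 scale with the pseudocount these 3 regions fell by 3.85, 3.82 and 3.61 from 8 h to XEN cells, and none had a SOX17 peak.

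The steepest gains were at closed regions over 100 kb from the nearest start. A region 329 kb from the start of Fat4, an atypical cadherin, had GATA6 at 0.82 RPM before induction, 0.12, 0.23, 0.48 and 0.69 RPM up to day 2, 4.54 RPM at day 4 and 6.93 RPM in XEN cells. The value before induction, from 5 reads, was above that at 8 h. SOX17 at this region was 0.71 RPM at day 2 and 6.01 RPM at day 4. An intronic region 133 kb from the start of Hs6st2, a heparan sulfate 6-O-sulfotransferase, went from 0.11 RPM at 8 h to 1.69 RPM at day 4 and 5.27 RPM in XEN cells, with no SOX17 peak called although SOX17 was 0.15 RPM before induction and 1.08 RPM at day 4. A region 117 kb from Zfp618 went from 0.35 to 4.15 and 8.65 RPM. The log2 changes from 8 h to XEN cells were 4.50, 4.18 and 4.01. With Oct4 siRNA these 3 had GATA6 of 3.78, 3.13 and 4.67 RPM at day 2, where control siRNA gave 1.57, 0.68 and 1.29 RPM. They are extremes picked for their gain. Late members as a set had medians of 0.83 RPM with control and 1.21 RPM with Oct4 siRNA. Over all members the median log2 change was 0.05.

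SOX17 was highest at day 4 at an intergenic region 35.6 kb from S1pr1, a receptor for sphingosine 1-phosphate, where it was 1.14 RPM before induction, 7.81 RPM at day 1, 11.8 RPM at day 2 and 22.6 RPM at day 4. GATA6 there went from 4.56 RPM at 8 h to 14.9 RPM at day 4, and OCT4 from 1.53 RPM before induction to 10.2 RPM at day 4. The region has no mid or high SOX17 motif by the rule that chose it. The next were regions near Afdn, which encodes the junction protein afadin, and Dact1, a regulator of Wnt signalling, each with SOX17 at 12.9 RPM at day 4. OCT4 before induction was highest near Adgrb2 (8.21 RPM), Krr1 (5.98 RPM) and Tmem38b (4.96 RPM). GATA6 at these regions went from 6.52, 5.38 and 3.24 RPM at 8 h to 3.94, 0.81 and 1.10 RPM in XEN cells. OCT4 near Adgrb2 was still 6.68 RPM at day 4 and 6.40 RPM in XEN cells, the latter from 1 library. Near Krr1 and Tmem38b OCT4 in XEN cells was 0.53 and 0.40 RPM. Input near Adgrb2 was above the members' median before induction and in XEN cells. The high OCT4 signal there was thus not limited to ES cells. Krr1 and Tmem38b had their motif far from the summit, at 166 and 595 bp. At the other end, the weakest members, near Nkain3, Map3k7 and Gm12666, reached at most 0.67, 0.67 and 0.71 RPM in any condition.

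Few members lay near known genes of either lineage. Within 100 kb of the nearest protein-coding start, 2 members belonged to genes of a list of 40 PrE genes and 1 to a list of 30 pluripotency genes, which is 0.239% and 0.119% of the members. Over all regions 321 and 240 did so (0.757% and 0.566%), around 38 and 29 of the genes. One of the PrE genes was Lrp2, the endocytic receptor megalin, with an intronic region 0.668 kb from its start (chr2:69585137-69585584) that was Early without a SOX17 peak. Its GATA6 was 0.33 RPM before induction, 1.82, 2.67, 1.79, 1.97 and 2.23 RPM up to day 4 and 1.70 RPM in XEN cells. The other, 65.1 kb from the endodermal forkhead factor Foxa2 (chr2:147980779-147981028), was Late, with GATA6 at 0.20 RPM at 8 h, 0.97 RPM at day 4 and 1.27 RPM in XEN cells. The pluripotency gene was Stat3, which transmits the LIF signal in ES cells. The region, in an intron 1.89 kb from a start (chr11:100937119-100937815), had GATA6 of 1.31 RPM before induction, 4.08 RPM at 8 h, 4.70 RPM at day 4 and 1.62 RPM in XEN cells, with SOX17 at 2.73 RPM at day 4. OCT4 at this region was 1.22 RPM before induction and 2.20 RPM at day 2.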

How the data were processed

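Per the labels and the study's methods, the authors trimmed reads with cutadapt, aligned them to mm10 with bowtie2, called peaks with MACS2 and counted reads per GATA6 peak with bamsignals. The deposited values are RPM, scaled by the authors to library size, with 1 column for all replicates of a condition. GATA6, SOX17, OCT:SOX and ESRRB motifs were scanned with FIMO by the authors, and the deposited score is that of the best match in a peak, given with its position, its class and how many matches there were. Other deposited columns are classes, taken as given: GATA6 dynamics (k-means), SOX17 and PTF peak overlap, accessibility and histone state. A column with the outcome of the authors' own test of GATA6 binding between siRNAs was not used, nor were 14 columns of accessibility and histone signal from libraries outside those listed.

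Of 47 labelled conditions, 45 had a column, covering GATA6, SOX17, OCT4, SOX2, ESRRB and input. Members and gene lists were chosen with earlier results of these data known. Regions were described by medians, quartiles and shares, and changes by the difference of log2(RPM + pseudocount), with as pseudocount the 5th percentile over non-zero RPM of an assay (0.193 for GATA6, 0.192 for SOX17, 0.167 for OCT4), called past 2-fold or, for siRNA, 1.5-fold. No p-value was computed, since replicates share a column and regions are not replicates. Intervals of medians are binomial order-statistic intervals and those of shares are Wilson intervals, both 95% and over regions only, so that they include no error between cultures. Library depth was derived from the steps between low values, taking a column as the mean of its labelled libraries. Where 2 steps accounted for the 60 lowest values, 2 depths follow (day 4 of GATA6 has 3 labelled libraries). The column before induction came out as whole reads in 100% of values, within 0.01 of a read. Depth could not be resolved in this way for GATA6 at day 2 and with Oct4 siRNA.

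Named regions were the 3 members highest in GATA6 at 8 h, in GATA6 in XEN cells, in SOX17 at day 4 and in OCT4 before induction, the 3 with the largest loss and gain of GATA6 from 8 h to XEN cells, the 3 with the lowest maximum, and members nearest to a listed gene. Sequences were read from GRCm38 at the deposited motif positions. Among the 37547 regions with a 13-base match, each of the 15357 distinct sequences had a single score. A further 505 regions listed shorter matches, 2 of them members. Base frequencies leave out matches on 1 chromosome. Genes came from GENCODE release M21 (basic). The calculations were tested on simulated data and run with scipy 1.17.1, pandas 2.3.3 and numpy 2.4.6 under Python 3.11.15, with figures from matplotlib 3.10.9 and sequence access through pysam 0.24.0. Alternatives were other summaries, widths, pseudocounts, filters, stricter motif rules and leaving out each chromosome.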

Additional observations from a re-analysis of the deposited data

How the results depend on the processing

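No paired analysis was possible because replicates share a column, and for the same reason no replicate could be left out. Of 98 alternative values, 59 stayed within the 95% interval of the value reported (for the number of regions, within 1.5 times), 33 moved outside it and 6 differed in sign, 4 of them because the change of all regions was subtracted. The Transient share (47.98% to 50.26%) and the distance from motif to summit (29 to 31 bp) stayed within it under all alternatives run, and leaving out each chromosome moved no value outside it. For levels relative to all regions (log2), means gave -0.89 at 8 h and -0.97 in XEN cells. At 8 h the sign turned per kb (0.0557) and within width classes (0.31), and in XEN cells the values were -0.10 per kb, -0.11 within width classes and -0.71 after subtracting input. The width-class values set regions of like width side by side, and the per-kb values divide by width. Relative to the median change of all regions, the change to 8 h was -0.13, that of SOX17 to day 4 -0.31, that of OCT4 -0.093 and that of SOX17 with Oct4 siRNA -0.0282, all negative where the change itself was positive: the members changed less than the median region, which is another question than whether they changed. A pseudocount 10 times larger gave 0.41, 0.13, 0.0354 and 0.13 for these 4 changes and one 10 times smaller 1.61, 0.65, 0.19 and 0.65, as its size sets the scale of low regions. Means gave 0.56 for SOX17 to day 4 and 0.18 for OCT4. Keeping regions whose higher value was at or above the median of all regions gave 2.07, 1.68, 0.56 and 0.78 for the same 4, -0.98 for GATA6 from 8 h to day 4 and 0.14 for GATA6 with Oct4 siRNA, over 179 to 307 members. A region passes through its higher condition, so that this filter itself enlarges changes. The 223 members with no partner motif gave -0.51 for the level at 8 h, -0.0354 for the change from 8 h to day 4, 0.13 for GATA6 with Oct4 siRNA, 55.6% closed, 16.1% with a SOX17 peak and 1.35% with an early PTF peak. The 428 members at or above the median score gave 0.0026 for GATA6 with Oct4 siRNA. Weighted to the widths of all regions, 51.7% were closed, 28.3% had a SOX17 peak and 14.0% an early PTF peak. The 5 width classes have equal weight in these shares, though the widest held only 17 members. The cause of these shifts was not tested. Low values are limited by depth, since the median before induction is 2 reads, and no value carries an error between cultures.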
